A study of Caenorhabditis elegans with 2 samples.

Results

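The fatty acid desaturase genes fat-1, fat-2, fat-3, fat-4, fat-5, fat-6 and fat-7 of Caenorhabditis elegans were taken as the probe sets that the platform annotation assigns to a single gene with one of these symbols. This gave 7 genes with 1 probe set each, of 17118 genes and 22625 probe sets on the array, and no probe set named a desaturase together with another gene. The samples were whole hermaphrodites of the wild-type strain N2, bleach-synchronised, fed Escherichia coli OP50 at 20 °C and collected at the fourth larval stage (L4). The control group was grown for 48 hours on standard plates. The other group was grown for the same time on plates with 2 µg/mL of the grape seed (Vitis vinifera) compound pOPC7, which the labels describe as an oligomeric proanthocyanidin trimer gallate, in a study of how such extracts affect lipid handling. Each group was represented by 1 deposited column of values, called an array here, so no difference below has a replicate check and no p-value was computed.

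Desaturases place double bonds into fatty acids, and the nematode, unlike mammals, can make polyunsaturated fatty acids from saturated ones. FAT-5, FAT-6 and FAT-7 are delta-9 enzymes that put the first double bond into a saturated acyl-CoA. FAT-5 prefers palmitoyl-CoA, whereas FAT-6 and FAT-7 are close homologues that turn stearoyl-CoA into oleoyl-CoA and can stand in for each other. FAT-2 (delta-12), FAT-3 (delta-6), FAT-4 (delta-5) and FAT-1 (omega-3) then act on the products, with elongation steps between, to give arachidonic and eicosapentaenoic acid.

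Only fat-7 differed by 1.5-fold, and by a margin of 0.0007 log2 units. The deposited log2 value of the fat-7 probe set was 5.98 on the control array and 6.57 on the pOPC7 array. The signal was therefore higher with pOPC7 by 0.59, or 1.501-fold, against a threshold of 0.585. In RNA of whole animals, more or fewer cells of a type and more or less RNA per cell cannot be told apart. A gene was called measured when the mean of its values on both arrays was at least 6, and fat-7, with a mean of 6.28, lay just above that limit. Its control value of 5.98 was under 6, so fat-7 passed only through its value with pOPC7. Of 8059 measured genes, 0.732% were higher by 1.5-fold and 0.211% were lower by as much. Counted over single probe sets with no limit on level, 1 of 7 desaturase probe sets was past 1.5-fold, beside 1.98% higher and 1.02% lower among the 20766 probe sets that name 1 gene. At the level of fat-7 such differences were more frequent: 1.71% of the 2283 genes with a mean from 6 to 7 were higher by 1.5-fold. Of the 2703 singly named probe sets within 0.5 log2 units of its mean level, 48 (1.78%) differed upward by as much as fat-7 or more. The SD of the differences of those probe sets was 0.26. fat-7 stayed above 0 but did not reach 1.5-fold when the arrays were centred on their medians (0.54) or when a loess trend of the differences with level was taken out (0.52).

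**Figure D1:**
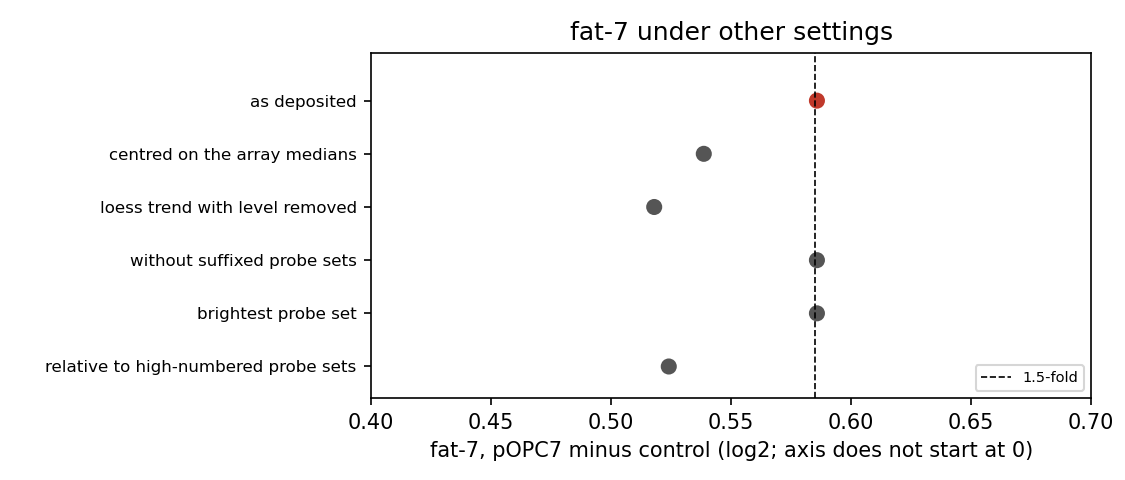
Difference of fat-7 (pOPC7 minus control, log2, x axis from 0.4 to 0.7) as deposited (red) and under 5 other settings (grey), with the 1.5-fold threshold as a dashed line. The deposited value of 0.59 lies on the line, and the lowest value is 0.52. The settings that choose among probe sets could not move fat-7, which has 1 probe set, without a suffix. The other grey points lie below the line.

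The signal of fat-6, the homologue of fat-7, was 9.93 on the control array and 10.12 with pOPC7. It was higher by 0.19, or 1.14-fold, and 1651 of the measured genes had a larger upward difference. The suffix of the fat-6 probe set marks possible matches to several transcripts, and which transcripts it matches is not given in the sources used here, so signal from a related desaturase cannot be told apart from that of fat-6. The differences of fat-7 and fat-6 were 0.40 apart. In comparison, the differences of 2 probe sets of the same gene were apart with an SD of 0.27 over 439 measured genes whose probe sets are numbered from 176000 upward, as those of the desaturases are, and with an SD of 0.35 over the 48 of them whose probe sets are dimmer than 7, the range of fat-7. fat-5, the palmitoyl-CoA desaturase gene, lay below the limit, at 5.40 in the control and 5.43 with pOPC7. Its difference of 0.02 changed sign when the arrays were centred (-0.03) or the trend with level was removed (-0.07). Among the 3 delta-9 genes the differences thus ran from 0.02 for fat-5 through 0.19 for fat-6 to 0.59 for fat-7.

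Of the 4 genes for later steps, fat-1 was the only one whose difference exceeded 1.2-fold, and it was lower with pOPC7. The fat-1 signal, from the gene for the omega-3 desaturase that converts omega-6 into omega-3 fatty acids, was 9.55 in the control and 9.26 with pOPC7. The difference of -0.30 is 1.23-fold lower, and 349 measured genes were lower by more. Within 0.5 log2 units of its level, 82 of 1329 probe sets (6.17%) differed downward by as much or more, and the SD of the differences there was 0.19. fat-1 remained below 0 under every scaling tried, from -0.36 to -0.30. At 1.2-fold, 11.6% of measured genes were higher and 6.06% lower, and of the 6 measured desaturases 1 was higher (fat-7) and 1 lower (fat-1).

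The delta-6 desaturase gene fat-3 stood at 8.25 on the control array and at 8.40 on the pOPC7 array, which is higher by 0.15 or 1.11-fold. The delta-5 desaturase gene fat-4 stood at 8.995 and 9.094, higher by 0.10 or 1.07-fold. Both were above 0 under every scaling tried, and both differences were smaller than the SD among probe sets of like level (0.20 for fat-3 and 0.19 for fat-4). The enzymes of these genes act at successive front-end desaturation steps. fat-3 and fat-4 are direct neighbours among the protein-coding genes of chromosome IV in the RefSeq annotation of assembly WBcel235. Their differences were 0.05 apart.

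fat-2 encodes the delta-12 desaturase that makes linoleic from oleic acid. Its deposited value was 10.55 on both arrays and was the same in all decimals given. Identical values on both arrays occurred in 445 of the 22625 probe sets (1.97%), in 76 of the 11219 with a mean of at least 6 (0.677%) and in 4 of the 1225 with a mean of at least 10 (0.327%). Only 26 other probe sets differed by less than 0.001, and 630 by less than 0.01. The cause of such identical values, that of fat-2 included, was not tested. fat-1 and fat-2 are also neighbours among the protein-coding genes of chromosome IV, and their differences were 0.30 apart.

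**Figure D2:**
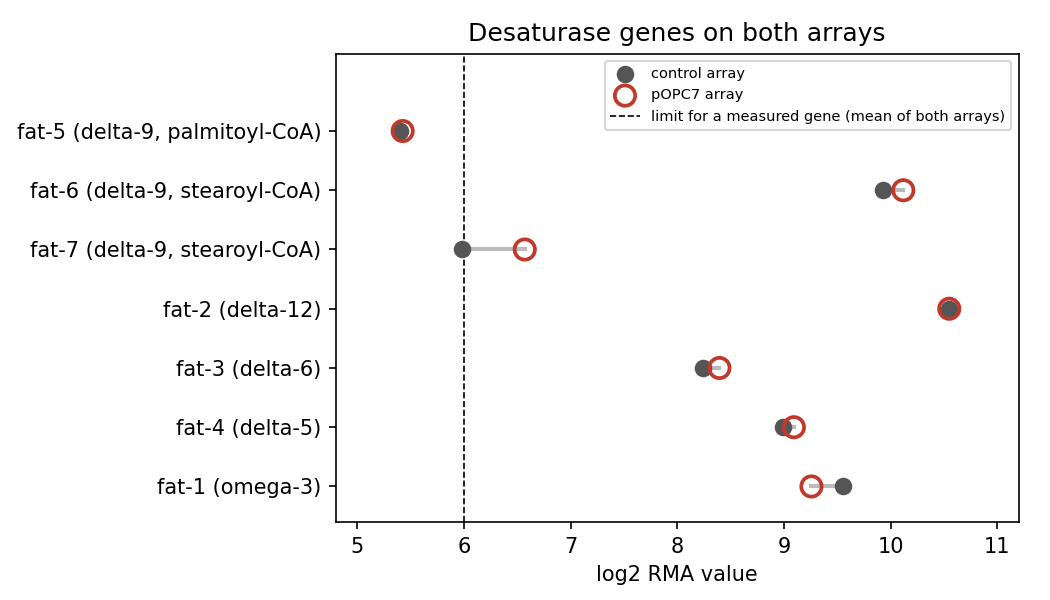
Deposited log2 RMA values of the 7 desaturase genes on the control array (filled grey) and the pOPC7 array (open red), with 1 array per group and no error bars. fat-7 shows the widest gap, 5.98 to 6.57 across the dashed measured limit of 6, fat-1 is the 1 gene lower with pOPC7, and the symbols of fat-2 coincide at 10.55.

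Taken as a list, the 6 measured desaturases had a median difference of 0.12, against 0.04 over all measured genes. There were 4 above 0 (fat-3, fat-4, fat-6 and fat-7), 1 at 0 and 1 below, while 57.8% of all measured genes were above 0. The differences within the list ran from -0.30 (fat-1) to 0.59 (fat-7). fat-7 was in the list only through its value with pOPC7. With a mean of at least 7, which leaves fat-7 out, the median was 0.10. At 2-fold no desaturase passed, as against 2 measured genes (0.0248%) that were higher by as much and none lower.

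**Figure D3:**
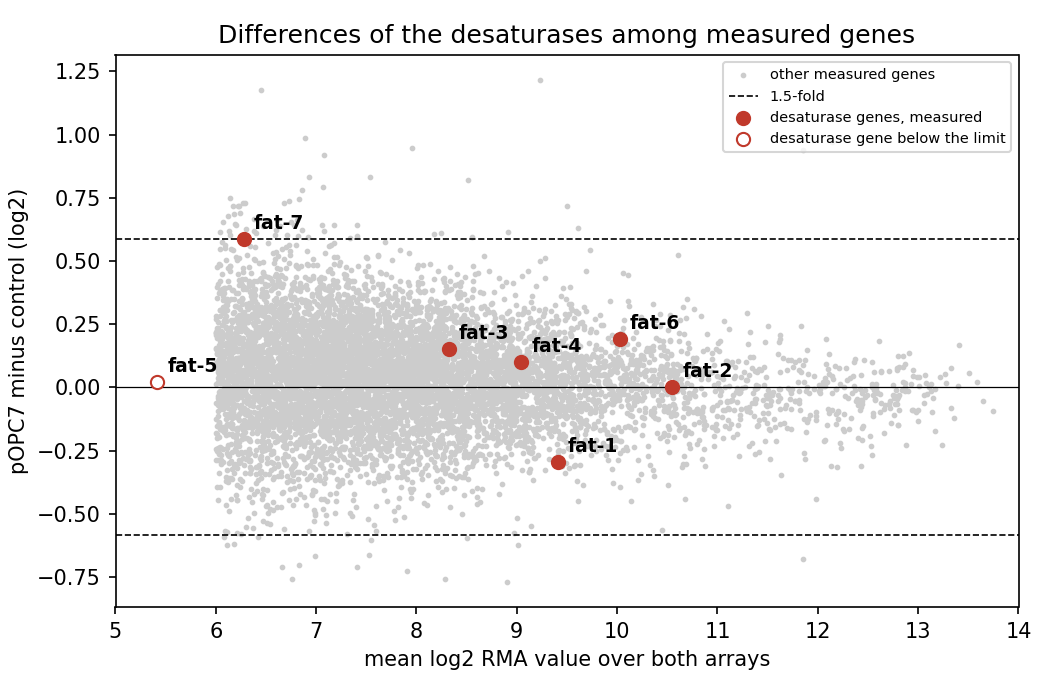
Difference (pOPC7 minus control, log2) against mean log2 RMA value for the measured genes (grey) and the desaturases (red; open symbol for fat-5, below the limit), with 1.5-fold as dashed lines. fat-7 lies on the upper line at the dim end, where the cloud is widest, and fat-1 lies at -0.30 in the lower part of the cloud at its brightness.

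Since each desaturase had 1 probe set, the agreement of probe sets could be judged only from other genes. Over 1721 genes with several measured probe sets, the scatter between the first 2 put the SD of 1 probe set at 0.22. That SD lay beside an SD of 0.20 for the differences of all measured genes. The differences of the first 2 probe sets had a Pearson correlation of only 0.08 over those 1721 genes. None of these genes had both probe sets past 1.5-fold in the same direction, although 78 had at least 1 past it. Probe set numbers moved with the differences: singly named measured probe sets numbered below 176000 had a median difference of -0.06 (2474 probe sets), and those from 176000 upward had 0.06 (7971 probe sets). The cut of 176000 was placed just under the lowest numbered desaturase probe set, that of fat-1. All 7 desaturase probe sets therefore belong to the latter by construction. Among genes with several probe sets in that range the single probe set SD was 0.19 (439 genes). It was 0.25 for the 48 genes with probe sets dimmer than 7, the range of fat-7, and 0.16 for the 125 genes with probe sets of at least 8, the range of fat-1, fat-2, fat-3, fat-4 and fat-6. The Pearson correlation between probe sets was 0.12 over the 439 genes, -0.09 over the 48 and 0.19 over the 125. Relative to the median of their number range the desaturase differences were 0.52 for fat-7, 0.13 for fat-6, 0.09 for fat-3, 0.04 for fat-4, -0.06 for fat-2 and -0.36 for fat-1.

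With 2 arrays the likeness of another gene can be described only by the closeness of its values. The measured gene nearest to fat-7 on both arrays was nlp-89, at 5.98 and 6.61, and 7 measured genes lay within a distance of 0.1 log2 units. The nearest to fat-1 was F28C1.1 (9.54 and 9.27), with 12 genes within that distance. For fat-6 it was F55B11.2, for fat-3 C06A1.3, for fat-4 hrg-11.2 and for fat-2 cct-7. No measured gene lay within 0.1 of fat-5, which is itself below the limit.

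Desaturation draws electrons from cytochrome b5 and its reductase. The cytochrome b5 genes cytb-5.1 and cytb-5.2 differed by 0.13 and 0.11, and hpo-19, a cytochrome b5 reductase gene, by -0.18. ttm-5, a homologue of sphingolipid desaturases, differed by 0.20, and its 2 probe sets gave 0.198 and 0.204. Of the 5 measured genes of this list 4 were above 0 (57.8% among all measured genes) and the median was 0.11. None reached 1.5-fold, beside 0.732% higher and 0.211% lower among all measured genes.

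Elongases and their partner enzymes lengthen the acyl chains between desaturation steps. Of 13 measured genes for elongation and fatty acid synthesis 10 were above 0 (57.8% among all measured genes) and 3 below. Their median of 0.14 lay beside 0.12 for the desaturases and 0.04 for all measured genes. None reached 1.5-fold, a fold passed by 0.732% (higher) and 0.211% (lower) of all measured genes. elo-7 had the largest difference, 0.37 (6.82 in the control and 7.20 with pOPC7), followed by the enoyl-CoA reductase homologue art-1 (0.27) and elo-4 (0.23). elo-2, which extends palmitic acid, differed by 0.19 and elo-1, which extends polyunsaturated acids next to FAT-3, by 0.14. The branched-chain elongase genes elo-6 and elo-5 differed by 0.17 and -0.03. Next to elo-1 in the pathway, fat-3 and fat-4 differed by 0.15 and 0.10, whereas fat-2 and fat-1 differed by 0.00 and -0.30. A joint change along the pathway was not tested.

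**Figure D4:**
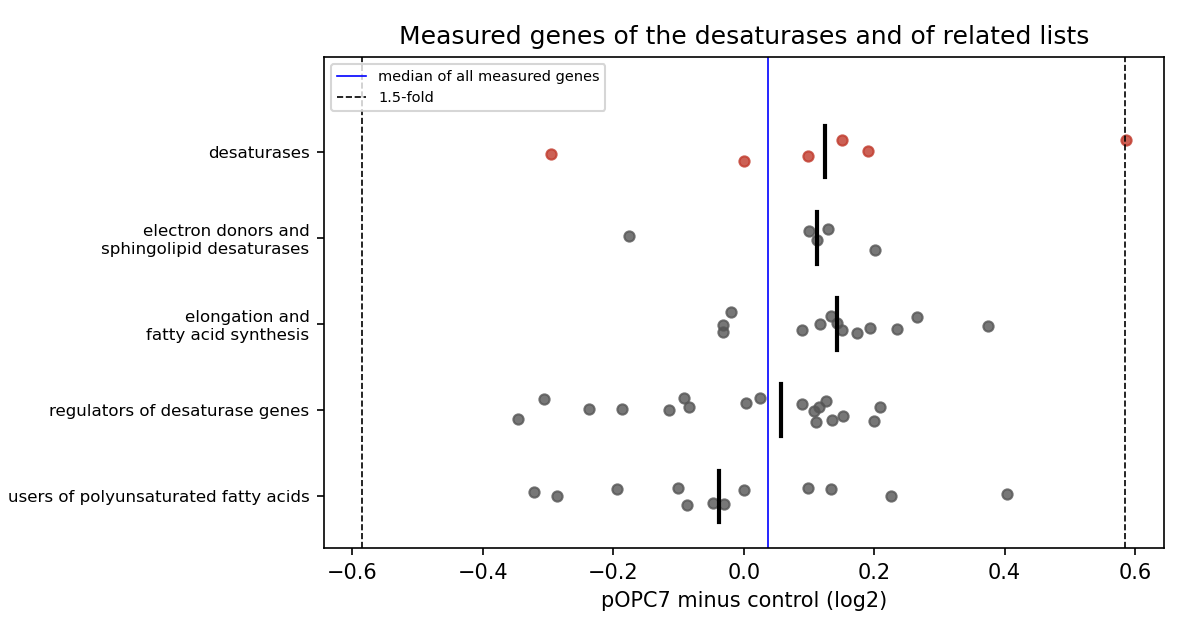
Differences (pOPC7 minus control, log2) of the measured desaturase genes (red) and of the measured genes of 4 related lists (grey), 1 point per gene with vertical scatter for legibility, black bars at the list medians, a blue line at the median of all measured genes (0.04) and dashed lines at 1.5-fold. fat-7 is the only point on a dashed line, and the list medians run from -0.04 (users of polyunsaturated fatty acids) to 0.14 (elongation and fatty acid synthesis).

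Of 18 measured regulators of desaturase genes 11 were above 0 (57.8% among all measured genes) and 7 below, with a median of 0.06. None reached 1.5-fold as a mean over its probe sets, beside 0.732% higher and 0.211% lower among all measured genes. sbp-1, the SREBP homologue that drives fat-5, fat-6 and fat-7, differed by 0.03 (7.37 and 7.39), and mdt-15, the Mediator subunit that works with it, by 0.09. nhr-49, a nuclear receptor required for fat-5 and fat-7 expression, differed by -0.19, and its 2 probe sets gave -0.33 and -0.04. Its partners nhr-80 and nhr-66 differed by 0.15 and -0.35, the latter from probe sets at -0.55 and -0.14. nhr-13 was below the limit (4.52 and 4.79), as was paqr-2, an adiponectin receptor homologue needed for membrane fluidity (5.67 and 6.04). The TFEB homologue hlh-30 (-0.31, with probe sets from -0.73 to 0.08) and the phosphatidylcholine synthesis gene pmt-1 (-0.24) made up, with nhr-66, the 3 largest differences among the measured regulators.

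Genes that use the polyunsaturated products were spread around 0. Of 12 measured members 4 were above 0 (57.8% among all measured genes), 7 below and acl-9 at exactly 0, with a median of -0.04. None was at 1.5-fold, beside 0.732% higher and 0.211% lower among all measured genes. The epoxide hydrolase gene ceeh-1 differed by 0.40 (0.33 and 0.48 in its probe sets), the acyl-CoA synthetase gene acs-4 by -0.32 and mboa-7, which encodes a lysophospholipid acyltransferase, by -0.29.

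The stearoyl-CoA desaturase gene fat-7 is expressed mainly in the intestine. The intestinal regulator elt-2 lay below the limit on both arrays (5.55 and 5.52), as a mean of 2 probe sets whose differences were -0.40 and 0.34. Of 10 measured intestinal markers 6 were above 0 (57.8% among all measured genes) and 4 below, with a median of 0.01. Their mean level was 9.82 in the control and 9.85 with pOPC7. The intestinal differences ran from -0.16 (vha-6) to 0.33 (elt-7). That of pho-1 was 0.17, as a mean of 2 probe sets at -0.01 and 0.35. The medians of the other marker lists were -0.07 for hypodermis (10 genes), -0.06 for body wall muscle (12), 0.00 for germline (12), 0.01 for sperm (9) and 0.06 for neurons (9). No measured marker reached 1.5-fold as a mean over its probe sets, beside 0.732% higher and 0.211% lower among all measured genes. Among the measured markers, single probe sets of nhr-23 (0.59) and gld-1 (-0.70) were past 1.5-fold. So were single probe sets of nhr-25 (0.78) and unc-104 (-0.70), which lay below the limit. Of all singly named probe sets, 1.98% were higher and 1.02% lower by as much. The 3 largest differences over the measured markers were those of the hypodermal genes nhr-23 (0.50), rol-6 (0.45) and col-12 (-0.44). None of the 11 male markers on the array reached the limit, with a highest value of 5.81. The log2 ratio of 3′ to 5′ control probe sets, a sign of RNA integrity, differed between the arrays by -0.13 (actin), -0.07 (Gapdh) and 0.04 (ubiquitin). The part of composition or RNA quality in the differences of fat-7 and fat-1 was not tested.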

How the data were processed

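Total RNA of whole L4 larvae (200 ng per sample, amplified and biotin-labelled per the labels' protocols) was measured on 2 arrays, 1 per group. The deposited log2 values were made by the authors with RMA, per the submitters' processing notes; RMA corrects background, quantile-normalises and summarises a probe set's probes. The sources used here give neither its version nor whether a column stands for 1 hybridisation or an average. The log2 scale was read from the range (1.78 to 13.90). The array medians were 5.94 and 5.99. Precision is limited by having 1 array per group.

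Of 22625 probe sets, 20766 carried 1 gene symbol, and the Entrez identifiers of the 7 desaturases matched the RefSeq table of WBcel235. A gene's value was the mean of its probe sets. Differences are pOPC7 minus control. The limit for a measured gene (a mean of 6) and the threshold (1.5-fold) follow an earlier treatment of these data, and the members and lists were chosen with earlier results of these data known. All desaturases were named, with 3 genes of each related list, 3 over the marker lists together, 11 further genes fixed by name, and the nearest gene in level. Named beyond this rule were cytb-5.2, acl-9, and the markers elt-2, vha-6, pho-1, elt-7, gld-1, nhr-25 and unc-104. The list genes elo-8, nhr-62, cyp-13A12, acl-10, opt-2, col-10, msp-10 and mab-23 were not matched and are not analysed here. Alternatives were other limits on level, scalings, choices of probe set and thresholds. The code was tested on simulated data whose shifts lay well past the threshold. That test therefore does not cover differences close to the threshold, such as that of fat-7. Loess (span 0.3) came from statsmodels 0.14.6, figures from matplotlib 3.10.9, and the rest from Python 3.11.15 with scipy 1.17.1, numpy 2.4.6 and pandas 2.3.3.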

Additional observations from a re-analysis of the deposited data

How the results depend on the processing

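The number of desaturase genes past 1.5-fold, and likewise of desaturase probe sets, was 1 as deposited. It was 0 with a mean of at least 7, after centring on the array medians, after removal of a loess trend with level, at a 2-fold threshold and relative to high-numbered probe sets (a setting chosen after seeing the data), and it was 2 at 1.2-fold. With a mean of at least 7 fat-7 is left out by construction. The median of the measured desaturases ranged from 0.06 to 0.12 over 9 other settings. As a change of percentile rank within the array, fat-7 differed by 6.70 percentile points and fat-1 by -2.08, while fat-5 (-0.65) and fat-2 (-0.0044) were negative, where their log2 differences as deposited were 0.02 and 0. fat-6 has no value without suffixed probe sets. No paired analysis was possible because each group has 1 array, and no replicate could be left out for the same reason.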
